A study of Oryza sativa with 4 samples.

Results

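The ubiquitin, F-box and proteasome genes of rice leaves were examined through 153 of the 21495 probes on the array. A probe was taken when its description named ubiquitin, the proteasome, an F-box, SKP1, a cullin, the COP9 complex, SUMO or a BTB protein. Ubiquitin fused to a ribosomal protein (6 probes), any ubiquinone gene and 1 probe with an unrelated description were left out. The study asked how light-grown and etiolated rice seedlings (Oryza sativa indica var. Panvel, called Panvel1 in the study's methods) respond to nitrate. Seedlings 8 to 10 days old were raised at 25 °C on distilled water without nutrients, either under a 12-h photoperiod (light) or in total darkness (dark, etiolated). According to the study's methods, excised leaves were floated on potassium nitrate or on water. The labels give 120 mM nitrate for 2 h, and the methods give a shorter treatment and a warmer growth temperature. Nitrate-treated seedlings of the dark series were also treated in darkness, so darkness during growth and darkness during treatment cannot be told apart.

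Ubiquitin is a small protein that is attached to other proteins by a cascade of an activating enzyme (E1), a conjugating enzyme (E2) and a ligase (E3). The ligase chooses the substrate, and in plants many ligases are assembled on a cullin, with SKP1 holding an exchangeable F-box protein or with a BTB protein in its place. Chains of ubiquitin send a protein to the 26S proteasome, a barrel of alpha and beta rings (the 20S core) capped by a regulatory particle of ATPases (RPT) and non-ATPases (RPN), while deubiquitinating enzymes take the chains off again. The COP9 signalosome, which removes a ubiquitin-like tag from cullins, is known for holding back light development in dark-grown seedlings, and auxin, gibberellin and light signals in leaves all act through degradation of this kind.

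Each probe was designed on a rice full-length cDNA, named here by its cDNA number, and carries the description of the closest known sequence. That sequence came from rice for 59 of the 153 probes and from another species for 94, so a name such as SKP1-like gives the nearest relative and not a proven function. The 153 probes fell into 6 for polyubiquitin, 4 for SUMO, 4 for other ubiquitin-like proteins, 6 for E1, 20 for E2, 2 for E3 ligases, 8 for SKP1 and its partners, 9 for cullins, 14 for F-box proteins, 2 for BTB proteins, 3 for the COP9 signalosome, 59 for the proteasome and 16 for deubiquitinating enzymes. There were 110 distinct descriptions, and 29 of them were shared by more than 1 probe, covering 72 of the probes. In each channel of each array 134 to 138 of the 153 were well above background, beside 77.1% to 80.8% of all probes. All 4 arrays detected 131 of them in both channels, and 11 were never detected.

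Nitrate-treated and water-treated RNA were hybridised together on each of 4 arrays, with 2 biological replicates per condition and the dyes reversed between them. Which channel held which treatment is not in the labels, although the dyes are. Channel 2 was read as nitrate, a likely direction, because the methods give the deposited ratio as signal over control and that ratio followed channel 2 over channel 1 at r = 0.986 to 0.992 across probes. With this reading, 4 of 6 nitrate and nitrite reductase probes were called higher with nitrate in light and 3 in dark, and none was called lower. The remaining probes in light had negative log2 ratios on both arrays, fitted at -0.43 (AK110249, a nitrate reductase relative) and -0.22 (AK064778, nitrite reductase). Of 22 probes for chlorophyll-binding proteins and the Rubisco small subunit, all were detected on some array, and their mean log2 water signal was 12.2 to 12.8 in light-grown and 9.61 to 10.1 in etiolated leaves. Of 9 seed storage protein probes, 5 were detected on some array and 4 were never detected. The water channel detected 2 of them on all 4 arrays, among them glutelin AK101299 at a mean log2 signal of 10.9 in light-grown and 11.1 in etiolated leaves. Glutelin AK107285 was at 8.11 in light-grown leaves and at 3.28, not detected, in etiolated leaves. In light 2 of the 9 were called lower with nitrate, 1 at a log2 ratio of -1.04 and 1 whose nitrate channel was well above background on no light array and whose water channel was so on 1. All arrays lay on 1 slide and were read in 1 scan, and the median red signal was 1263 on light array 2 against 267 to 445 on the others. Having 2 arrays in a condition limits how precise any ratio can be.

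Few of these probes were called for nitrate, in light at a share close to that of all probes. A probe was called nitrate-responsive at an absolute log2 ratio of at least 1 (nitrate over water) with an unadjusted p of at most 0.05 in limma. In light 5 of the 153 were called (3 up-regulated and 2 down-regulated, 3.27%), beside 3.74% of all probes (2.28% up and 1.46% down). In dark 1 was called, down-regulated (0.654%), beside 3.53% of all probes (1.81% up and 1.72% down). After Benjamini-Hochberg adjustment over all probes by limma none of the 153 passed in either condition. Among all probes 67 passed in light (0.312%, with 0.209% up and 0.102% down) and 48 in dark (0.223%, with 0.135% up and 0.0884% down). Some of the calls passed the adjusted p under other settings, given at the end. Without a fold threshold and without adjustment, 9 of the 153 passed in light and 12 in dark, against 16.1% and 15.9% of all probes. Of the 153, 1 was called in both conditions (0.654%), close to the 0.842% of all probes called in both in any direction. Its signs were opposite, and the share over all probes was not split by direction.

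The fitted ratios were mostly small, among the 153 and among all probes. A larger share of the 153 than of all probes was well above background, and its part in these sizes was not tested. The median absolute log2 ratio was 0.15 in light and 0.18 in dark, beside 0.21 and 0.22 over all probes. The 95% interval of limma lay within a log2 ratio of 1 either way for 126 of the 153 in light (82.4%, against 72.7% of all probes) and for 123 in dark (80.4%, against 71.9%). The replicates agreed on the sign of the ratio for 78 of the 153 in light (51%, against 58.8% of all probes) and for 82 in dark (53.6%, against 61.4%). Their ratios correlated over the 153 at r = 0.228 in light and 0.305 in dark, where all probes gave 0.449 and 0.462. These correlations are across probes of arrays that differ in dye and plants, and probes are not independent replicates. In bulk leaf RNA fewer cells of a type and less RNA per cell cannot be told apart.

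SKP1, the adaptor that ties F-box proteins to the cullin, held 3 of the 5 calls in light and the only call in dark, on 3 and 1 of the 8 probes for SKP1 and its partners (37.5% and 12.5%, beside 3.74% and 3.53% of all probes). Under normexp background correction, which models the background of the raw signals in place of the scanner's subtraction, none of these 4 calls was kept. AK064628, closest to a barley skp1 gene, had log2 ratios of 1.91 and 1.57 on the light arrays and of 1.15 and 0.06 on the dark arrays. Both light arrays lay above both dark arrays, and the dark arrays differed from each other by more than the light arrays did. In light the fitted log2 ratio was 1.74 ± 0.30 (SE, n = 2 arrays), which is 3.33-fold, with an adjusted p of 0.115 by limma. The call was lost under normexp, where the ratio of 0.74 was under the fold threshold at a limma adjusted p of 0.0302. It was also lost without moderation of the spread. In dark the ratio was 0.60 ± 0.30 and did not pass.

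AK073278, closest to Skp1 of Medicago sativa, was the probe that went both ways. Its log2 ratios were 0.95 and 1.34 in light and -1.02 and -1.28 in dark. Every light array was above 0 and every dark array below it. The fit gave 1.15 ± 0.17 in light (limma adjusted p = 0.0968) and -1.15 ± 0.17 in dark (limma adjusted p = 0.107), 2.21-fold up and 2.22-fold down. In dark its water channel was detected on both arrays and its nitrate channel on 1. Under normexp the ratios were 0.41 in light and -0.22 in dark and both calls were lost, and without light array 2 the light ratio was 0.95 and the light call was lost.

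The remaining SKP1 genes did not share this pattern. AK070953, closest to SKP1 of a tobacco relative, had light ratios of -0.69 and -1.45 and was called down-regulated (-1.07 ± 0.29, limma adjusted p = 0.209). In light its nitrate channel was detected on no array and its water channel on 1, so the size of the ratio was poorly measured. It was -0.12 under normexp and -0.69 without light array 2, and the call was lost under both and without moderation. The probe is named here because it completes the 5 calls. AK102131, whose description is the same barley skp1 gene as that of AK064628, had ratios of 0.53 and -0.21 in light and -0.77 and -1.09 in dark, with no dark array on which the nitrate channel was detected. The Arabidopsis SKP1/ASK1 relative AK107960 was not well above background on any array. Of the 3 SKP1-interacting F-box proteins none was called, and the largest fitted log2 ratio among them was 0.59, for AK071138 in dark.

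Polyubiquitin genes encode head-to-tail ubiquitin repeats and supply free ubiquitin. AK058319, a rice poly-ubiquitin, had log2 ratios of 1.26 and 1.10 in light and -0.29 and -0.07 in dark. The light arrays lay close together and well apart from the dark arrays. It was up-regulated 2.26-fold in light (1.18 ± 0.14, limma adjusted p = 0.0784), the smallest adjusted p among the 153, and gave -0.18 ± 0.14 in dark. This probe was saturated in 2 of its 8 channel readings. The other rice polyubiquitin description, rub1, had 2 probes, and AK061956 read 0.20 and 1.69 on the light arrays, a gap wider than the call threshold, with 5 of 8 readings saturated.

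OsPAE1, the alpha 5 subunit of the 20S core (AK103487), was the only proteasome gene called. Its log2 ratios were -1.40 and -1.19 in light and 0.10 and -0.34 in dark, so the light arrays were both lower than either dark array. It was down-regulated 2.46-fold in light (-1.30 ± 0.17, limma adjusted p = 0.0867). The call was lost under normexp, where the ratio of -0.79 was under the fold threshold at a limma adjusted p of 0.0233. No other proteasome probe was called in light or dark. This made 1 of 59 in light (1.69%, beside 3.74% of all probes) and 0 in dark (beside 3.53%). Over all 59 the median log2 ratio was -0.05 in light and -0.02 in dark, beside -0.01 over all probes in each condition. Of the other alpha-ring probes none had a p of at most 0.05 in either condition.

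**Figure D1:**
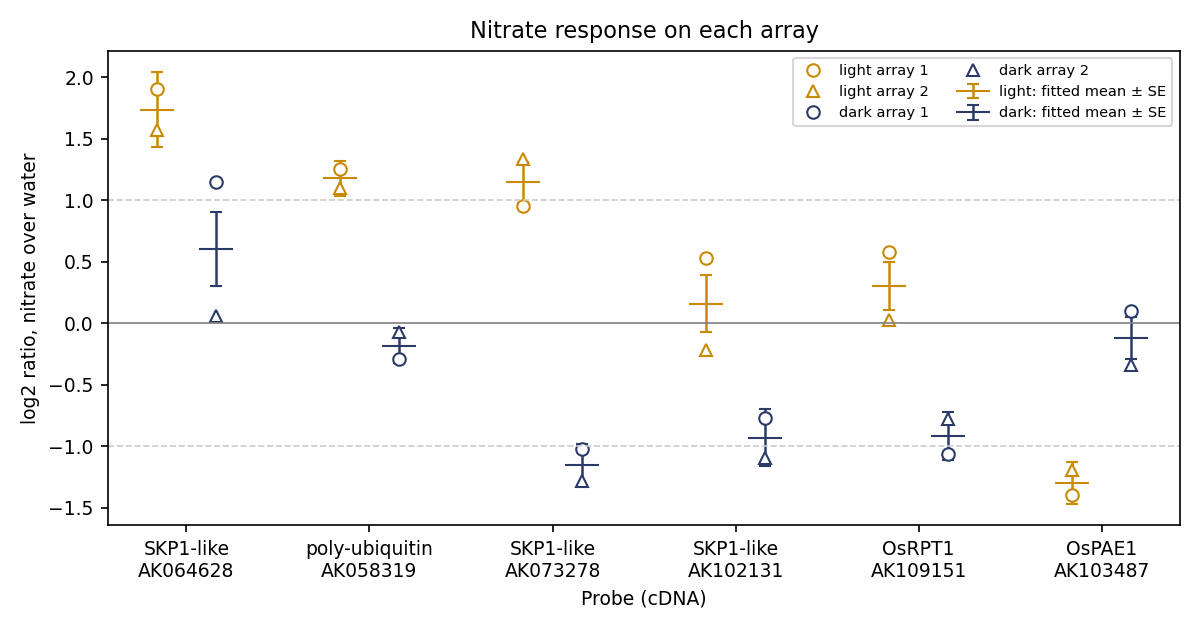
Log2 ratio of nitrate over water on each array (circles and triangles) for 6 probes named for nitrate, with the fitted mean and limma's SE (horizontal mark and bar); light is shown in yellow and dark in blue, and dashed lines mark a log2 ratio of 1 either way. AK073278 lies above 0 on both light arrays and below 0 on both dark arrays.

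No E1, E2, E3, F-box, cullin, BTB, COP9, SUMO, deubiquitinating or other ubiquitin-like probe was called in light or dark. This covers only the probes taken by their description. The study reports an F-box gene, OsFBX207, as up-regulated in light and down-regulated in dark. It also lists BTBA4 among the genes up-regulated in both. Whether either gene is among the probes taken here was not tested. Among the 20 E2 probes the largest ratio was that of AK112030, closest to a wheat ubiquitin carrier protein, with 1.01 and 0.78 in light and -0.11 and 0.36 in dark. Its fitted light ratio was 0.89 ± 0.18 (limma adjusted p = 0.134), under the fold threshold. AK104148 carries the same description, was picked after its values were seen, and read 0.69 and 0.87 in light and 0.48 and 0.51 in dark (0.78 ± 0.13 and 0.50 ± 0.13). All 4 arrays were above 0 for this E2, and neither mean reached the threshold.

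Within each of the other roles, the member with the largest ratio was as follows. The largest E1 ratio was that of AK104898 in dark (-0.55 ± 0.18), an enzyme closest to a wheat E1. SUMO, a ubiquitin relative that alters proteins without sending them to the proteasome, had its largest ratio for AK069668 in dark (0.76 and 0.63, fitted 0.69 ± 0.13, limma adjusted p = 0.146). A ubiquitin-like protein, AK058725, read 0.64 and 0.66 in light (0.65 ± 0.13). Both arrays thus gave nearly the same ratio, below the threshold.

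Among the ligases, the F-box protein AK107806, closest to Arabidopsis FBW2, had 0.44 in light, and its dark arrays went to 0.83 and -0.48. The cullin AK073477 had -0.71 in light, where neither channel was well above background. AtPOB1-like AK100835, a BTB protein, had 0.37 in light and the COP9 subunit AK061355, closest to CSN8, -0.38. The HECT-type E3 relative AK110355, a ligase related to human E6-AP, had 0.23 in dark. In the proteasome the beta 5 subunit OsPBE1 (AK071652), which carries the chymotrypsin-like activity, had 0.58 in dark, and the regulatory particle ATPase OsRPT1 (AK109151) had -0.92 in dark. The deubiquitinating enzyme AK067123 had -0.99 in dark, from arrays of -1.61 and -0.36, and the 95% interval ran from -2.27 to 0.30.

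**Figure D2:**
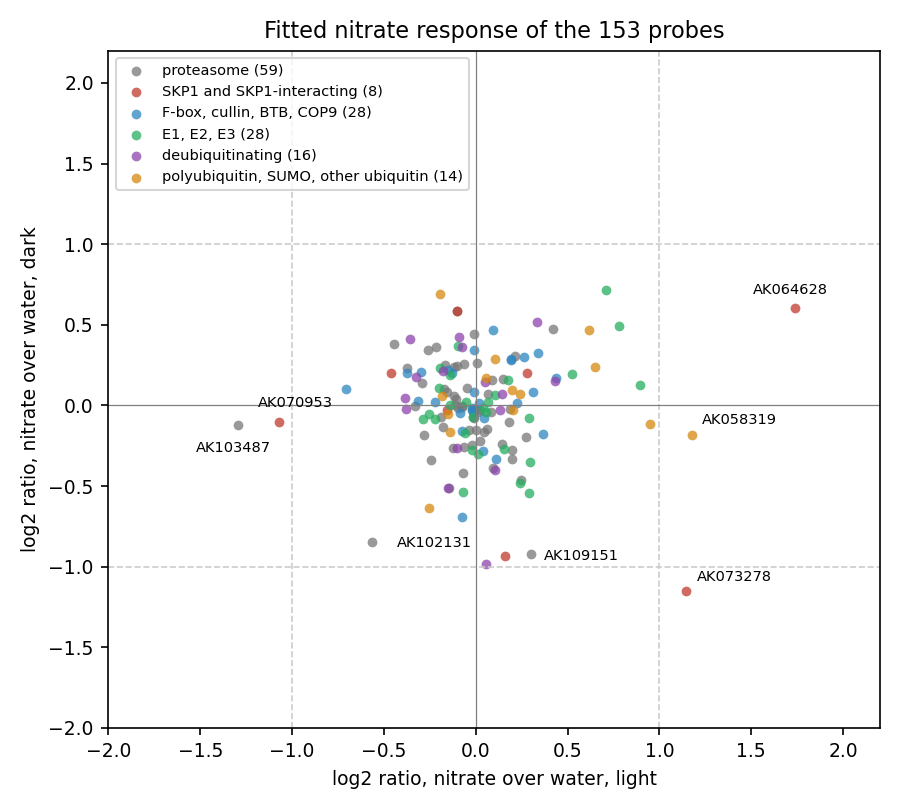
Fitted log2 ratio of nitrate over water in light (horizontal axis) against dark (vertical axis) for the 153 probes, coloured by role with the number of probes in brackets; dashed lines mark a log2 ratio of 1 either way. Most probes lie inside the central square, and AK073278 lies at 1.15 in light and -1.15 in dark.

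The response to nitrate was then compared between conditions directly. The contrast of dark minus light passed the same thresholds for 5 of the 153 (3.27%; 1 higher and 4 lower in dark), beside 6.51% of all probes (2.98% higher and 3.54% lower). After adjustment by limma no probe on the array passed, and without a fold threshold and adjustment 11 of the 153 did, against 15.7% of all probes. The largest difference was that of AK073278, whose nitrate ratio was lower in dark by 2.30 ± 0.24 on the log2 scale (limma adjusted p = 0.124), and under normexp the difference was -0.63 and the call was lost. For poly-ubiquitin AK058319 the difference was -1.36 ± 0.20 (limma adjusted p = 0.176) and for OsPAE1 it was 1.18 ± 0.24 (limma adjusted p = 0.217). The difference for OsPAE1 was 0.96 without dark array 1 and 0.77 under normexp, under the threshold in each.

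OsRPT1, an ATPase of the regulatory particle, was called in this contrast through AK109151 and through no other of its probes. AK109151 read 0.58 and 0.03 in light and -1.06 and -0.78 in dark, so that both dark arrays were below both light arrays, and the difference was -1.22 ± 0.28 (limma adjusted p = 0.223). It was lost without light array 1 (-0.95), without dark array 1 (-1.08, with an unadjusted p above the threshold) and without moderation. The other OsRPT1 probes, AK070538 and AK100060, had differences of 0.05 and -0.36. For AK102131 the difference was -1.09 ± 0.33 (limma adjusted p = 0.265), and it was lost under normexp (-0.14), with the Feature Extraction log ratio, without moderation, and without light array 1 (-0.72), dark array 1 (-1.25, with an unadjusted p above the threshold) or dark array 2 (-0.93). AK064628, with a difference of -1.13 ± 0.43, did not pass the unadjusted p, so its response was not shown to differ between light and dark.

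Without nitrate, etiolated and light-grown leaves differed in a smaller share of these probes than of all probes. The nitrate calls used an unadjusted p and another fit, so the counts here are not set against them. Water-treated leaves were compared in a separate-channel analysis by limma, called at an absolute log2 difference of at least 1 (etiolated minus light-grown) and an adjusted p of at most 0.05. Of the 153, 21 were called (13.7%), 14 higher and 7 lower in etiolated leaves, beside 28.1% of all probes (14.1% higher and 14% lower). At any fold 53 of the 153 passed the adjusted p (26 higher and 27 lower, 34.6%), beside 45.3% of all probes (23.1% higher and 22.2% lower). The median absolute log2 difference was 0.43, beside 0.58 over all probes. Called probes were picked by these same values, so the separation of their arrays described below adds no support. Light-grown and etiolated water RNA never shared an array, so array and condition cannot be told apart in this comparison. The chlorophyll-binding and Rubisco probes moved with it (15 of 22 higher in light-grown leaves, 1 higher in etiolated leaves), and their part in the results was not tested.

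Ubiquitin, SUMO and conjugating enzymes gave 7 of the 14 probes that were called higher in etiolated leaves. These were 2 of 6 polyubiquitin (33.3%), 1 of 4 SUMO (25%) and 4 of 20 E2 probes (20%), beside 14.1% of all probes. SUMO-1 probe AK069668 had log2 water signals of 6.63 and 6.77 in light-grown and 8.89 and 8.99 in etiolated leaves. The groups were far apart and each replicate pair close together, and the difference was 2.24 ± 0.11, or 4.72-fold (limma adjusted p = 5.33e-05). The 3 probes with the SUMO-1 description did not move together, as AK058869 was higher by 0.78 ± 0.16 and AK062434 lower by 0.61 on the log2 scale (-0.61 ± 0.16), both passing at any fold. Polyubiquitin rub1 probe AK067024 had signals of 10.85 and 10.36 in light-grown and 12.40 and 12.09 in etiolated leaves (1.64 ± 0.42, limma adjusted p = 0.0226). Its call was lost without light array 1 or 2 and with the dye as a term (adjusted p = 0.0703 by limma), and the other rub1 probe, AK061956, was at 0.61 and did not pass. AK101853, closest to a fungal poly-ubiquitin, was higher by 1.36 ± 0.28, with a call that was lost under normexp background correction (0.23), with the dye as a term and without dark array 1.

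Of the 20 E2 probes, 4 were called higher in etiolated leaves and 0 lower (20% in all, beside 28.1% of all probes, 14.1% higher and 14% lower). At any fold 6 passed as higher and 3 as lower (45%, beside 45.3% of all probes). AK105320, closest to Arabidopsis UBC20, a relative of the E2 that acts on mitotic cyclins, had signals of 7.53 and 7.76 in light-grown and 9.48 and 9.69 in etiolated leaves (1.94 ± 0.29, 3.83-fold, limma adjusted p = 0.00264). AK066799, closest to a putative Arabidopsis E2, had 11.54 and 12.33 against 13.68 and 14.00 (1.90 ± 0.30, limma adjusted p = 0.00322). The groups did not overlap for either probe, although the light-grown arrays of AK066799 lay further apart than those of AK105320. OsUBC5a (AK063826) was higher by 1.52 ± 0.24 and the wheat carrier protein relative AK112030 by 1.48 ± 0.17. AK104148, which shares the description of AK112030, was at 0.99 ± 0.10, just under the fold threshold. The relative of COP10 (AK111080), an E2-like repressor of light development in Arabidopsis, went the other way at -0.78 ± 0.12 (limma adjusted p = 0.0033) and passed only at any fold.

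Of 6 E1 probes 1 was called (16.7%, beside 28.1% of all probes). This probe, AK072668, was higher by 1.10 ± 0.13 in etiolated leaves, and it fell just short of the fold threshold without dark array 2 (0.98). The HECT-type relative AK110355 had signals of 6.60 and 6.35 in light-grown and 5.10 and 5.36 in etiolated leaves. Both etiolated arrays were below both light-grown arrays (-1.25 ± 0.22, limma adjusted p = 0.00524), and normexp background correction ended the call (-0.48). The other E3 probe was never detected.

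**Figure D3:**
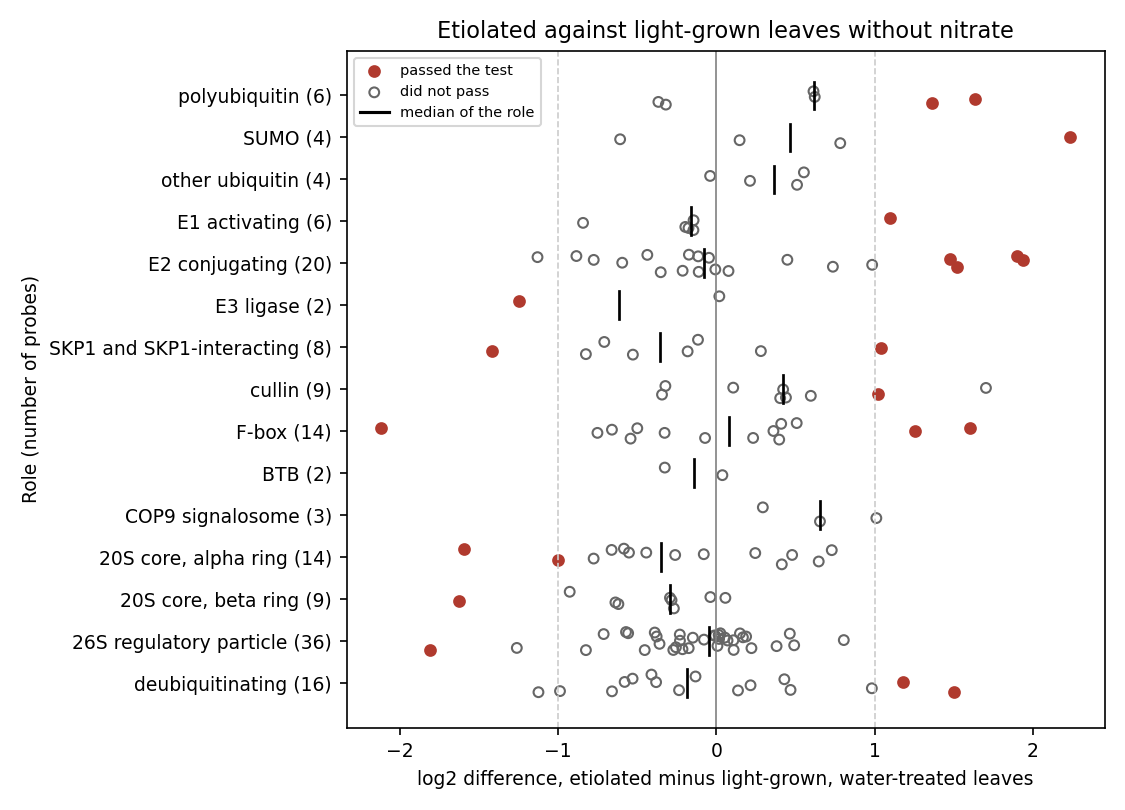
Log2 difference between water-treated etiolated and light-grown leaves (horizontal axis) for the 153 probes by role (rows, with the number of probes); filled points passed the test, open points did not, and the vertical stroke is the median of the role. All 4 called proteasome probes lie on the left, lower in etiolated leaves.

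The cullin-based ligases went both ways. F-box proteins, the substrate receptors, gave 2 higher calls and 1 lower of 14 (21.4%, beside 28.1% of all probes). AK068085, closest to human FBX3, had log2 water signals of 12.80 and 13.39 in light-grown and 10.90 and 11.05 in etiolated leaves (-2.12 ± 0.26, 4.35-fold lower, limma adjusted p = 0.00127). AK059536, closest to poplar TIR1, the auxin receptor in Arabidopsis, had 8.99 and 8.91 against 10.51 and 10.60 (1.60 ± 0.11, 3.04-fold, limma adjusted p = 0.000123). In each case all etiolated arrays lay on the same side of the light-grown arrays. The second TIR1-like probe, AK073912, was also higher (0.51 ± 0.12, limma adjusted p = 0.0161) and passed at any fold. The FBW2-like AK070008 was higher by 1.25 ± 0.16, while the other FBW2-like probes, AK069370 and AK107806, were at 0.40 and 0.23 and did not pass. The relatives of ORE9, the F-box protein of strigolactone signalling in Arabidopsis (AK065478 and AK107102), were at -0.33 and -0.07 and did not pass.

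SKP1-like AK102131 had signals of 7.14 and 7.71 in light-grown and 6.13 and 5.88 in etiolated leaves (-1.42 ± 0.27, limma adjusted p = 0.00711), a call lost without light array 2 (-1.12, adjusted p = 0.0699 by limma) and under normexp background correction (-0.57). AK064628, the other probe of that description, was at -0.71 ± 0.38, and AK073278, which had the opposite nitrate responses, at 0.28 ± 0.20. Neither passed. The F-box protein SKIP2 relative AK071138 (1.04 ± 0.25) and the cullin 3 relative AK066234 (1.02 ± 0.21) were just past the fold threshold. The first call was lost without light array 1 or 2, the second without light array 1, dark array 1 or dark array 2, and both under normexp. Of the 9 cullin probes 7 had a positive difference, with a median of 0.42, and 1 passed (11.1%, beside 28.1% of all probes). The highest of them was AK073477 at 1.70, which did not pass (limma adjusted p = 0.0534). Its water channel was not well above background in light-grown leaves, so the size of this difference was poorly measured. All 3 COP9 signalosome probes were positive (0.29 to 1.01), and the CSN8 relative AK061355 passed at any fold (0.66 ± 0.14, limma adjusted p = 0.0117).

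Of the 59 proteasome probes 4 were called, all lower in etiolated leaves (6.78%, beside 14% of all probes called lower and 14.1% higher). At any fold 18 of the 59 passed (30.5%, beside 45.3% of all probes), 13 lower and 5 higher, whereas the other 94 probes had 14 lower and 21 higher, a difference that was not tested. The median of the 59 was -0.21, beside 0.02 over all probes. OsRPT4b (AK063158), an ATPase of the regulatory particle, had log2 water signals of 9.57 and 8.84 in light-grown and 7.35 and 7.42 in etiolated leaves (-1.81 ± 0.24, 3.51-fold lower, limma adjusted p = 0.00159). One of the beta 6 subunit probes (AK071019) had 8.94 and 9.15 against 7.21 and 7.63 (-1.63 ± 0.17, limma adjusted p = 0.000617). In both, every etiolated array was below every light-grown array by more than the replicates differed. The second beta 6 probe, AK103136, was at -0.27 and did not pass.

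OsPAA2, the alpha 1-2 subunit, had 2 probes that gave different values. AK109489 had 8.42 and 8.45 in light-grown and 6.90 and 6.78 in etiolated leaves (-1.59 ± 0.20, limma adjusted p = 0.00127), but -0.77 under normexp background correction, under the fold threshold. AK102448 was at -0.08 and did not pass. The alpha 3 relative AK067977 was lower in darkness by only just the fold required (SE 0.19 on the log2 scale), had a saturated reading, and was lost under normexp (-0.91), without light array 2 (-0.94) and without dark array 2 (-0.88). Of the 9 beta-ring probes 8 had a negative difference, where 52.1% of all probes had a positive one, and 4 passed at any fold (44.4%, beside 45.3% of all probes), all lower (beside 22.2%), among them OsPBE1 (beta 5, -0.93 ± 0.18), 1 of the beta 1 probes (AK104152, -0.64 ± 0.13) and OsPBG1 (beta 7, -0.62 ± 0.18). The other beta 1 probe, AK103425, was at -0.04, and the catalytic beta 2 subunit OsPBB1 at 0.06 ± 0.17. The alpha ring was mixed, with 3 higher and 5 lower of 8 that passed at any fold (57.1% of 14). In the regulatory particle 6 of 36 probes passed at any fold (16.7%), 2 higher and 4 lower, with a median of -0.05.

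Deubiquitinating enzymes gave 2 higher calls and 0 lower of 16 (12.5%, beside 14.1% of all probes called higher). AK069300, closest to the ubiquitin-specific protease UBP21, had signals of 10.95 and 10.52 in light-grown and 12.29 and 12.17 in etiolated leaves (1.50 ± 0.18, limma adjusted p = 0.00106). AK102933, closest to UBP23, had 13.20 and 13.18 against 14.30 and 14.44 (1.18 ± 0.12, limma adjusted p = 0.000494). Both were higher on both etiolated arrays. At any fold 3 were higher and 3 lower (37.5%, beside 45.3% of all probes), and the lower ones included 1 of the relatives of UBP26 (AK105104, -0.99 ± 0.15), an enzyme that removes ubiquitin from histone H2B in Arabidopsis.

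**Figure D4:**
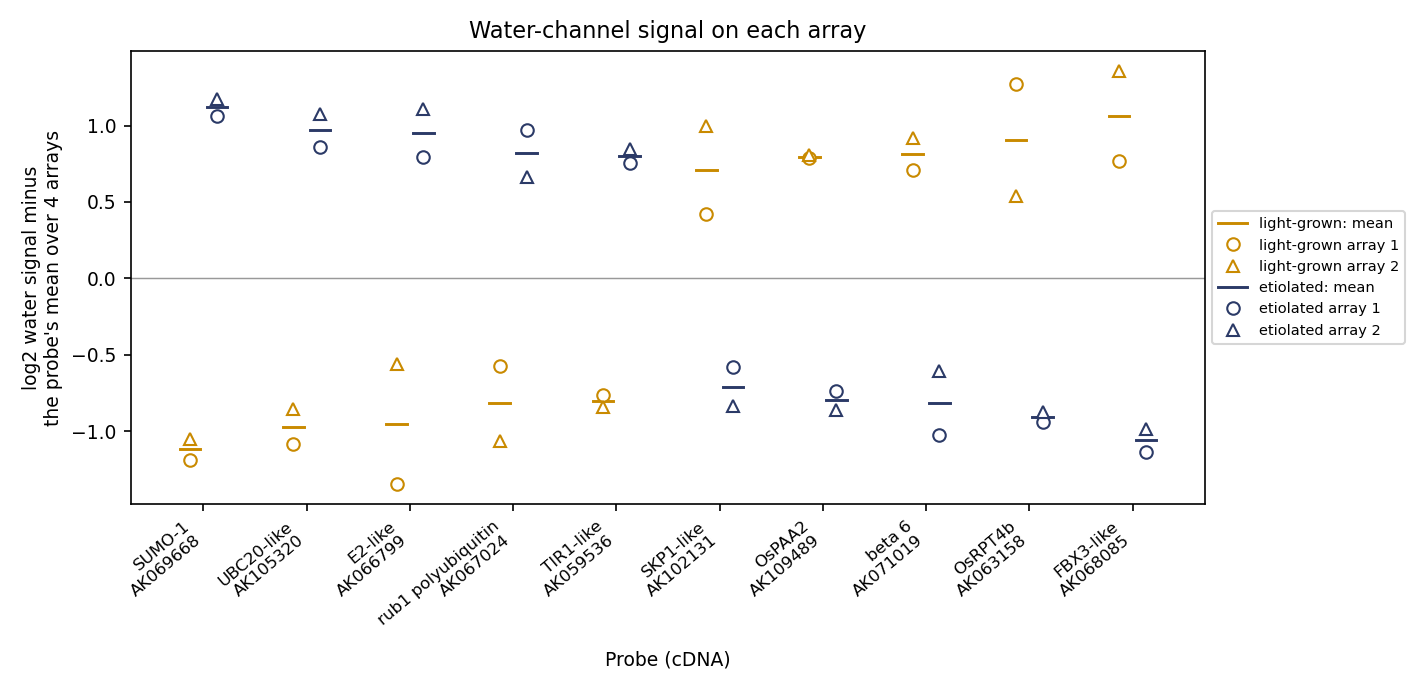
Log2 signal of the water channel on each array, minus the mean of the probe over the 4 arrays, for the 5 called probes with the largest increase and the 5 called probes with the largest decrease in etiolated leaves; circles and triangles are arrays 1 and 2 and strokes the means. The light-grown and etiolated arrays overlap for none of the 10 probes, which their choice by these same values made likely.

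Probes with the same description often gave different values. Among the 29 descriptions shared by 2 or more probes, the water differences within a description spanned more than 1 on the log2 scale in 12. In 3 of the 29 (SUMO-1, the alpha 2 subunit OsPAB1 and the alpha 3 subunit of ryegrass) some probes passed as higher and others as lower at any fold. In 2 (TIR1-like and the wheat carrier protein) at least 2 probes passed and all were higher. For OsPAB1 the 4 probes ran from -0.66 to 0.65. A shared description names the same nearest sequence for different rice cDNAs, and whether these are the same gene was not tested.

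Other genes of protein turnover that lie outside the rule (RING finger and U-box proteins, RUB, CDC48 and autophagy proteins, 53 probes) gave 0 calls in light (beside 3.74% of all probes), 1 up and 1 down in dark (3.77%, beside 3.53%), and 2 lower in the dark minus light contrast (3.77%, beside 6.51%). In water-treated leaves 9 of the 53 were higher and 6 lower in etiolated leaves (28.3%), beside the 13.7% of the 153 and the 28.1% of all probes.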

How the data were processed

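Total RNA, extracted with hot phenol, was amplified, labelled and hybridised to 4 two-colour Agilent rice arrays. The authors deposited the scanner output, with background-subtracted, dye-balanced intensity values and a log10 ratio per spot (Feature Extraction 9.5.3.1 in the file headers, another version in the methods), and a table of linear ratio values normalized in GeneSpring GX, with 144 to 3004 probes per array missing and medians of 0.989 to 1.01, used here as an alternative. Processed intensities were turned to log2(nitrate/water), normalized by loess within arrays (span 0.3, with 4 iterations), and the 2 spots of each probe were averaged. Control spots (1417 of 44407) and outlier spots (7 to 60 per array) were left out. All 21495 probes were fitted with limma 3.58.1 (lmFit, eBayes) in R 4.3.3, with 1 coefficient per condition. Water channels were compared by lmscFit after Aquantile normalization (statmod 1.5.0, correlation within spots -0.0442). The methods' thresholds were used for nitrate, with Benjamini-Hochberg adjusted p over all probes beside them. A value not well above background in a group gives only a bound.

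Genes were named by rule: called probes detected on both arrays of a condition (up to 10 each way for nitrate, 5 each way for the other contrasts) and the largest nitrate ratio in each role. Others were chosen after their values were seen. The members and lists were chosen with earlier results of these data known. The labels call the replicates biological and give no numbers, so replicates 1 and 2 follow accession order and coincide with dye orientation. Scripts were tested on simulated data. Alternatives were normexp background correction (offset 50), median centring, the Feature Extraction log ratio, the deposited ratios, dropping dim probes, a replicate block, retaining outlier spots, no moderation, adjusted p, quantile normalization, a dye term and leaving out each array. Of 153 cDNA numbers, 0 matched the RefSeq gene table, so the array's descriptions were used. Figures were drawn with matplotlib.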

Additional observations from a re-analysis of the deposited data

Results flagged for a closer look

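The nitrate response differed between light and dark by the contrast itself, with an unadjusted p of at most 0.05 in limma and a log2 difference of 1 or more either way, for 5 probes, and none passed after Benjamini-Hochberg adjustment. SKP1-like AK073278 was lower in dark by a log2 difference of -2.30 (adjusted p = 0.124 by limma), with arrays of opposite sign in the conditions. Poly-ubiquitin AK058319 had a difference of -1.36 (adjusted p = 0.176 by limma), OsRPT1 probe AK109151 of -1.22 (adjusted p = 0.223 by limma) and SKP1-like AK102131 of -1.09 (adjusted p = 0.265 by limma). OsPAE1 (AK103487) was higher in dark, with a difference of 1.18 (adjusted p = 0.217 by limma).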

How the results depend on the processing

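Calls for nitrate depended on the background correction and on the threshold, among the 153 and among all probes. Under normexp 1 of the 153 was called in light, 0 in dark and 3 in the dark minus light contrast. All probes gave 1.26%, 1.03% and 2.33% there, lower than the 3.74%, 3.53% and 6.51% of the main setting. Without moderation of the spread 3 were called in light and 3 in the contrast, beside 2.63% and 3.22% of all probes. By the adjusted p 0 were called in light, in dark and in the contrast, beside 0.312%, 0.223% and 0% of all probes. Leaving out an array gave 5 to 8 calls in light, 1 to 5 in dark, 5 to 11 in the contrast and 20 to 23 in water-treated leaves. Each of these fits left 1 array in a condition. The share of all probes called moved in them too, so these counts show nothing specific to the 153. The replicate numbers give no pairing, so the replicate block is the dye orientation. With this block 5 were called in light, 1 in dark and 7 in the contrast, beside 3.75%, 3.55% and 6.76% of all probes. In water-treated leaves the settings that kept all arrays gave 14 to 23 calls, beside 18.1% to 34.4% of all probes. Among the values of named and called probes, normexp ended 15 calls, the adjusted p 11, no moderation 4, the dye term 3 and the Feature Extraction log ratio 1, while median centring, the deposited ratios, quantile normalization, the block and outlier spots kept ended 0. Leaving out dim probes removed AK070953, so that 4 of 136 were called in light (beside 4.13% of all probes tested). It ended 0 calls among the probes still tested. The adjusted p by limma also moved. With dim probes left out, the 4 light calls passed it (0.016 to 0.0242), as did AK073278 in dark (0.0255) and in the contrast (0.0124). With the deposited ratios, which also cover fewer probes, the 5 light calls passed (0.0279 to 0.0484). With those ratios AK073278 also passed in the contrast (0.0408). Under normexp AK058319 passed in light (0.00425) and in the contrast (0.0231). With median centring AK058319 (0.0363) and AK103487 (0.0476) passed in light. With the Feature Extraction log ratio, the block or no moderation none of these calls passed. Among the values of named and called probes only AK110355 in dark and AK073477 in light changed sign, and the cause was not tested. AK110355 was at -0.053 with the deposited ratios, at -0.086 without dark replicate 1 and at 0.55 without dark replicate 2. AK073477 was at 0.013 under normexp. A block for slide or scan was not run, because all arrays shared both.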
